A study of Mus musculus with 12 samples.

Results

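The RNA of 10 immune checkpoint ligands and receptors was measured in sorted neutrophils: Cd274 (PD-L1), Pdcd1lg2 (PD-L2), Havcr2 (TIM-3), Lgals9 (galectin-9), Vsir (VISTA), Cd80, Cd86, Cd40, Cd47 and Sirpa (SIRPα). They were taken by gene symbol from the 55335 genes counted in each library, and all 10 passed the filter on low counts in each of the 3 comparisons. The 12 libraries came from FVB mice aged 10 weeks and kept under SOPF (specific and opportunistic pathogen free) conditions, with 4 libraries in each of 3 groups. PyMT TANs were tumor-associated neutrophils from the mammary tumors of PyMT mice, which carry the polyoma middle T oncogene as a transgene. PyMT-Cxcr2-/- TANs came from the same tumor model with a constitutive deletion of the chemokine receptor Cxcr2, so that it was not restricted to neutrophils. WT BM neutrophils came from the bone marrow of WT mice without the transgene. Neutrophils of both tissues were enriched for CD11b and then sorted as CD45+ CD11b+ Ly6G+ F4/80- cells. Because the control neutrophils were from another tissue and from mice without tumors, the effect of the tissue and that of the tumor cannot be told apart in the comparisons with BM.

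Checkpoint molecules are pairs of surface or secreted proteins that raise or lower the activity of a neighboring immune cell. PD-L1 and PD-L2 bind PD-1 on T cells and dampen them, galectin-9 binds TIM-3, and VISTA acts as an inhibitory ligand and receptor that is abundant on myeloid cells. CD80 and CD86 engage CD28 as costimulators and CTLA-4 as an inhibitor, CD40 on antigen-presenting cells receives the CD40 ligand of T cells, and CD47 binds SIRPα on phagocytes as a signal against engulfment.

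The libraries held between 25032704 and 51351569 counts on genes. The deletion was visible in the counts, as Cxcr2 was at 1196 ± 224 CPM (SD, n = 4) in PyMT TANs, at 9.38 ± 0.576 CPM in PyMT-Cxcr2-/- TANs and at 2035 ± 195 CPM in WT BM neutrophils, where CPM stands for counts scaled to a common library size by TMM over the 12 libraries. The 10 neutrophil markers examined were detected in every group, and their summed level was 10890 to 17230 CPM in PyMT TANs, 18640 to 30370 CPM in PyMT-Cxcr2-/- TANs and 78920 to 104300 CPM in WT BM neutrophils. Markers of other cells were also found in the sorted TANs. The 10 macrophage markers summed to 2195 to 5317 CPM in PyMT TANs and 2368 to 4944 CPM in PyMT-Cxcr2-/- TANs against 224 to 319 CPM in WT BM neutrophils, and all 10 were past the thresholds as higher in both kinds of TANs. Of all genes tested, 30.1% were higher and 23.2% lower in PyMT TANs than in BM, and 34.4% and 25.1% in PyMT-Cxcr2-/- TANs. Adgre1, which encodes the F4/80 antigen that the sort excluded, ranged from 68.6 to 192 CPM in the 8 TAN libraries and from 8.66 to 12.1 CPM in BM. Dendritic cell markers summed to 367 to 503 CPM in PyMT TANs, 289 to 309 CPM in PyMT-Cxcr2-/- TANs and 129 to 167 CPM in BM. Epithelial markers reached 50.4 to 472 CPM in PyMT TANs and 93.3 to 331 CPM in PyMT-Cxcr2-/- TANs, and in BM 5 of the 10 (Krt8, Krt5, Krt14, Cldn3 and Csn3) were at 0 in all 4 libraries. The T cell markers were mixed. Their sum was 27.9 to 57.5 CPM over the TAN libraries and 226 to 257 CPM in BM, but in BM most of it was Cd3d (221 CPM in BM on average, 12.4 and 27.9 CPM in PyMT and PyMT-Cxcr2-/- TANs). Of 6 tested, 2 were higher and 2 lower in PyMT TANs (30.1% and 23.2% of all genes tested). In PyMT-Cxcr2-/- TANs 3 of 7 were higher and 2 lower (34.4% and 25.1%). Cd4 was among the higher, at 7.25 and 2.23 CPM in the TANs and 0.212 CPM in BM. B cell markers summed to between 7.88 and 37.1 CPM in all 12. The part of such cells in the results below was not tested, and in bulk RNA fewer cells of a type and less RNA per cell cannot be told apart.

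**Figure D1:**
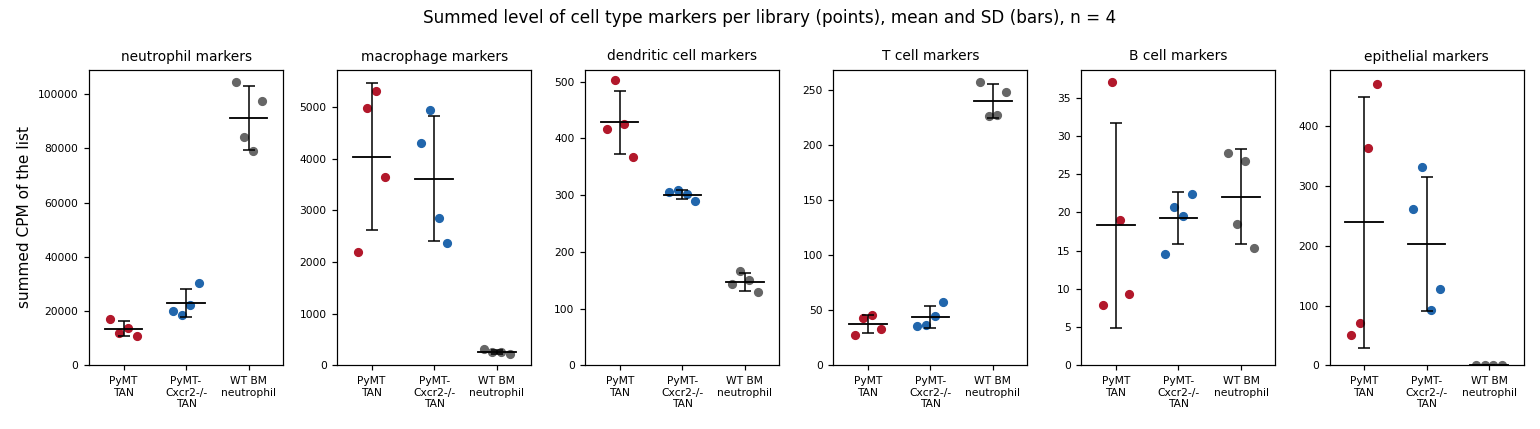
Summed CPM of the 6 lists of cell type markers in each library (points, y axis) by group (x axis), with the mean and SD as bars. Macrophage markers lay between 2195 and 5317 CPM in TANs and between 224 and 319 CPM in WT BM neutrophils. The neutrophil sum was highest in BM, at 78920 CPM or more, and there most of it was S100a8 and S100a9.

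Among the 10 genes, levels could be ranked within a group on the scale of CPM per kb of exon. Sirpa and Vsir were the most abundant checkpoint RNAs in every group. In WT BM neutrophils Vsir led with 353 ± 46.6 CPM per kb (SD, n = 4) and Sirpa followed with 227 ± 36.0, and the ranges of these neighbors did not overlap. In TANs the order was reversed, with Sirpa at 159 ± 33.2 CPM per kb and Vsir at 109 ± 27.7 in PyMT TANs, where the ranges overlapped, and at 223 ± 28.7 and 131 ± 19.7 in PyMT-Cxcr2-/- TANs, where they did not. Cd47 and Lgals9 shared the middle ranks in each group without separating, at 47.6 ± 8.19 and 43.5 ± 6.72 CPM per kb in PyMT TANs and at 78.1 ± 7.08 and 70.7 ± 5.90 in BM. Cd274 and Havcr2 came next in PyMT TANs, with 30.2 ± 5.46 and 27.2 ± 2.545 CPM per kb and overlapping ranges, ahead of Cd80 (16.7 ± 2.0) and Cd86 (16.2 ± 3.57), which overlapped in turn. In BM Cd80 and Cd86, at 9.03 ± 1.44 and 6.96 ± 0.642 CPM per kb, stood above Cd274 at 2.02 ± 0.669 and Havcr2 at 0.283 ± 0.0881. Cd40 and Pdcd1lg2 were the scarcest in both kinds of TANs, below 1 CPM per kb on average.

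**Figure D2:**
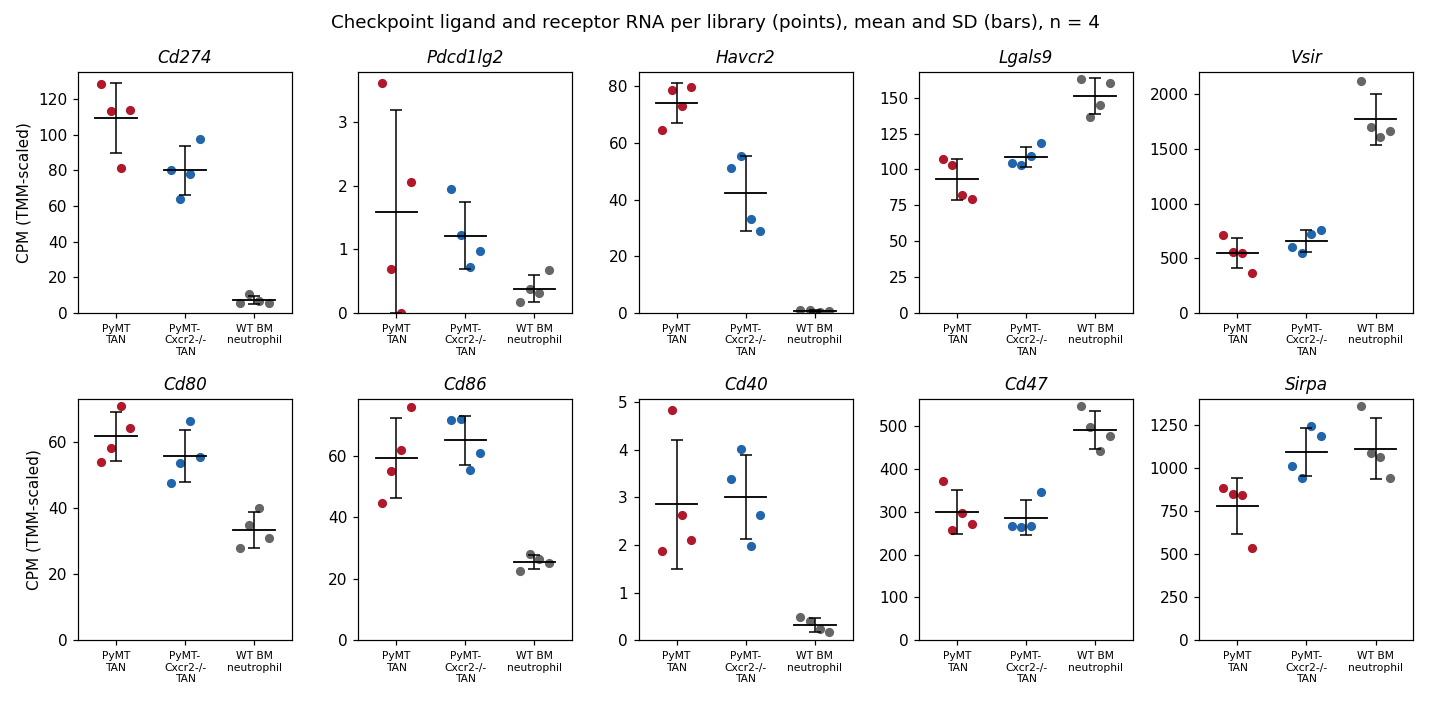
CPM of the 10 checkpoint genes (y axes, linear from 0) in each of 4 libraries per group (points), with the mean as a line and the SD as a bar. For Cd274, Havcr2, Cd80, Cd86 and Cd40 every TAN library was above every WT BM neutrophil library, and for Lgals9, Vsir and Cd47 every TAN library was below them.

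The first comparisons asked how TANs differed from BM neutrophils. In PyMT TANs 5 of the 10 checkpoint genes were higher than in WT BM neutrophils (Cd274, Havcr2, Cd80, Cd86 and Cd40) and 3 were lower (Lgals9, Vsir and Cd47) at a Benjamini-Hochberg adjusted p under 0.05 in edgeR's quasi-likelihood test and a change of 1.5-fold or more. In PyMT-Cxcr2-/- TANs 6 were higher, the same 5 and Pdcd1lg2, and 2 were lower, Vsir and Cd47. These counts stand against a large background, as 30.1% of all 17153 genes tested were higher and 23.2% lower in PyMT TANs, and 34.4% higher and 25.1% lower of 17732 genes in PyMT-Cxcr2-/- TANs. The median log2 fold change of the 10 genes was 1.12 in PyMT TANs and 1.18 in PyMT-Cxcr2-/- TANs, where the medians of all genes tested were both 0.09. For 9 of the 10 genes the groups did not overlap in PyMT TANs against BM, and the same number did not overlap in PyMT-Cxcr2-/- TANs against BM, with 58.3% and 65.9% of all genes tested in that position. At an unadjusted p under 0.05 there were 9 of 10 in each comparison, against 61.9% and 71.6% of all genes tested. Both comparisons used the same 4 BM libraries.

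**Figure D3:**
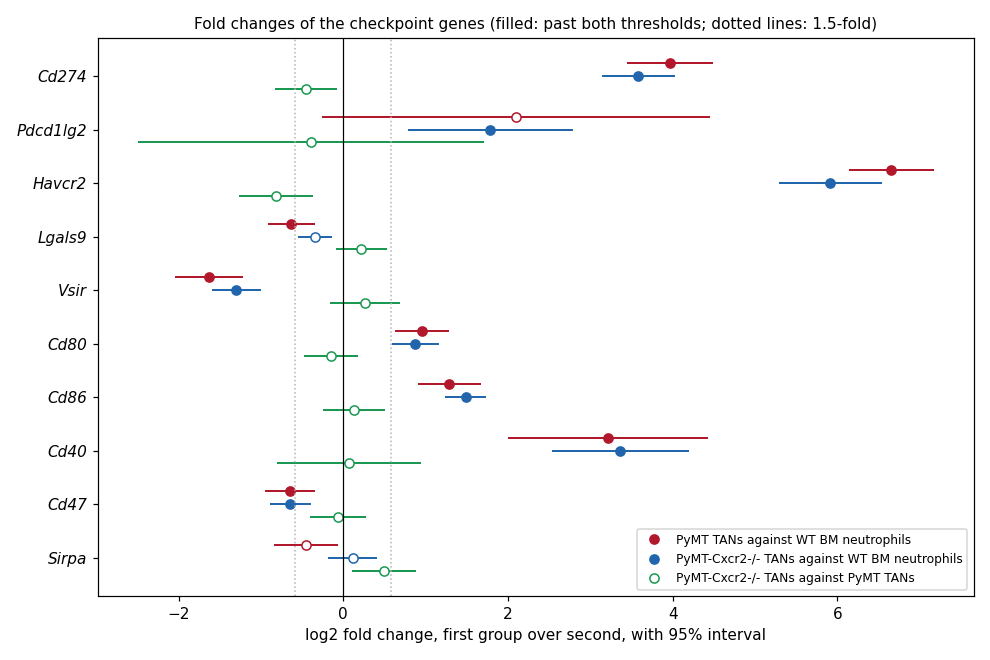
The log2 fold change of each checkpoint gene (x axis, first group over second, with its 95% interval) in the 3 comparisons. Filled points passed both thresholds, open points did not, and the dotted lines mark a 1.5-fold change. Havcr2 had the largest change in both comparisons with BM (6.66 and 5.92), and all 10 points of PyMT-Cxcr2-/- TANs against PyMT TANs are open.

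Of the ligands of PD-1, Cd274 was the strongly expressed gene. Cd274 was at 128, 113, 81.5 and 114 CPM in the 4 PyMT TAN libraries, at 80.4, 63.9, 78.2 and 97.4 CPM in the PyMT-Cxcr2-/- TAN libraries, and at 5.76, 10.8, 7.02 and 5.66 CPM in WT BM neutrophils. All 8 TAN libraries were far above all 4 BM libraries. The log2 fold change was 3.97 ± 0.238 (SE), a 15.6-fold rise, in PyMT TANs (edgeR quasi-likelihood test, adjusted p = 2.35e-07), and 3.58 ± 0.207, a 12-fold rise, in PyMT-Cxcr2-/- TANs (edgeR, adjusted p = 1.62e-08). From BM to TANs the summed macrophage markers were higher together with Cd274. Within each TAN group the library with the most Cd274 had the lowest macrophage sum, and the one with the least had the highest. The part of macrophages in Cd274 was not tested. Taken as a percentage of the summed macrophage markers of the same library, Cd274 was 1.53 to 5.85% in PyMT TANs, 1.29 to 4.11% in the PyMT-Cxcr2-/- group and 1.80 to 4.09% in BM, so that these 3 ranges overlapped. The largest marker in this sum was Csf1r in BM (219 of 265 CPM on average). In TANs it was Apoe (1967 of 4038 CPM in PyMT TANs and 1770 of 3617 CPM in the PyMT-Cxcr2-/- group). The percentages of TANs and BM, here and below, thus rest on different markers.

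Cd274 lies on chr19:29367455-29388095 (GRCm38, plus strand). An antisense gene, AC119228.1, covers 511 bases of its exons and followed the same pattern, with means of 60.1 CPM in PyMT TANs, 52.9 in the PyMT-Cxcr2-/- group and 4.09 in BM. As the strand setting of the counting was not given in the sources used here, the reads of this pair cannot be fully told apart. Jak2, the kinase upstream of the STAT factors that induce Cd274, ends 54.4 kb before Cd274 starts, and it was also higher in TANs, by 1.26 on the log2 scale in the PyMT group and by 0.616 in the PyMT-Cxcr2-/- group (edgeR, adjusted p = 1.12e-05 and 0.000181). Plgrkt, the plasminogen receptor gene next to Cd274 on the opposite strand, had means of 25.3, 22.5 and 24.2 CPM in the 3 groups.

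Pdcd1lg2, the second PD-1 ligand gene, starts 22.8 kb past the end of Cd274 and was far less abundant. It was at 3.60, 0.694, 0 and 2.06 CPM in PyMT TANs, at 1.94, 1.23, 0.723 and 0.966 CPM in PyMT-Cxcr2-/- TANs and at 0.180, 0.371, 0.315 and 0.673 CPM in WT BM neutrophils. The PyMT-Cxcr2-/- TANs were all above BM, while the PyMT TANs straddled it. The 0 in the third PyMT TAN library was 0 counts, which allows up to 0.102 CPM at 3 counts, and the other 3 held 26 to 171 counts. In PyMT-Cxcr2-/- TANs Pdcd1lg2 rose by 1.78 ± 0.464 on the log2 scale (edgeR, adjusted p = 0.00373), though this call was lost in a fit of all 12 libraries (edgeR, adjusted p = 0.14). In PyMT TANs the log2 difference from BM was 2.10 ± 1.07 with a 95% interval from -0.257 to 4.46 (edgeR, adjusted p = 0.116), and without the library at 0 it was 2.50 (edgeR, adjusted p = 0.0054).

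TIM-3 and its ligand galectin-9 moved in opposite directions. Havcr2, known as an inhibitory receptor of T cells that is also found on myeloid cells, showed the largest change of the 10 genes. Its level was 64.7, 78.8, 73.2 and 79.8 CPM in PyMT TANs, 51.2, 55.6, 33.0 and 29.0 CPM in the PyMT-Cxcr2-/- group, and 0.990, 0.960, 0.516 and 0.617 CPM in WT BM neutrophils. The 3 groups did not overlap, and BM libraries held 18 to 33 counts of Havcr2. The change from BM was 6.66 ± 0.234 on the log2 scale in PyMT TANs, which is 101-fold (edgeR, adjusted p = 1.48e-08), and 5.92 ± 0.289, or 60.4-fold, in PyMT-Cxcr2-/- TANs (edgeR, adjusted p = 4.29e-09). As a percentage of the summed macrophage markers, Havcr2 was 1.38 to 2.95% in PyMT TANs, 1.12 to 1.22% in the PyMT-Cxcr2-/- group and 0.204 to 0.362% in BM. The TANs were above BM on this scale, which rests on different markers in TANs and BM, and the part of macrophages was not tested.

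Lgals9 was at 108, 103, 82.4 and 79.2 CPM in PyMT TANs, at 104, 103, 109 and 118 CPM in PyMT-Cxcr2-/- TANs and at 163, 136, 145 and 161 CPM in WT BM neutrophils. Every BM library was above every TAN library. Lgals9 fell by 0.634 ± 0.129 on the log2 scale in PyMT TANs (edgeR, adjusted p = 0.00142), just past the 1.5-fold limit, which was missed without the fourth PyMT TAN library (-0.58). In PyMT-Cxcr2-/- TANs the log2 difference was -0.34 ± 0.095 (edgeR, adjusted p = 0.00558) and did not reach that limit. When libraries were scaled by their totals alone, the PyMT TAN difference was -0.19 and no longer past the test (edgeR, adjusted p = 0.18).

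Vsir was the gene with the largest fall. Its level was 709, 561, 546 and 369.5 CPM in PyMT TANs, 599.7, 546, 722 and 755 CPM in the PyMT-Cxcr2-/- group, and 2116, 1696, 1607 and 1661 CPM in WT BM neutrophils. The lowest BM library, at 1607 CPM, was far above the highest TAN library, at 755 CPM. Vsir fell by 1.63 ± 0.187 on the log2 scale in PyMT TANs, or 3.10-fold (edgeR, adjusted p = 2.29e-05), and the log2 change was -1.298 ± 0.139, or 2.46-fold, in PyMT-Cxcr2-/- TANs (edgeR, adjusted p = 2.25e-06). Vsir lies within the bounds of Cdh23, a cadherin gene on the opposite strand, with no exon base in common. It was still among the most abundant checkpoint RNAs of the TANs after this fall.

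The windows around the start sites of the genes with the largest rises and the largest fall are shown because their RNA moved in opposite directions. RefSeq (GRCm38.p6) gave a window of 250 bases before to 50 bases after the start for 7 of the 10 genes, and all 3 below are on the plus strand, written 5′ to 3′. They span chr19:29367188-29367487 for Cd274, chr11:46454681-46454980 for Havcr2 and chr10:60346601-60346900 for Vsir. Capitals mark matches, on either strand, to AP-1 (TGANTCA), STAT GAS (TTCNNNGAA), IRF (AANNGAAA) or the NF-kappaB consensus.
Cd274: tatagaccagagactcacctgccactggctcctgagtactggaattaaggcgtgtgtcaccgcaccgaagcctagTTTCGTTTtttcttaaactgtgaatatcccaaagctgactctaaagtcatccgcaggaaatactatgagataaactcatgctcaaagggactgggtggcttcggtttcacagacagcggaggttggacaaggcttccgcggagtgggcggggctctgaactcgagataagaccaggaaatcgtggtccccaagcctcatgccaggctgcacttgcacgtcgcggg
Havcr2: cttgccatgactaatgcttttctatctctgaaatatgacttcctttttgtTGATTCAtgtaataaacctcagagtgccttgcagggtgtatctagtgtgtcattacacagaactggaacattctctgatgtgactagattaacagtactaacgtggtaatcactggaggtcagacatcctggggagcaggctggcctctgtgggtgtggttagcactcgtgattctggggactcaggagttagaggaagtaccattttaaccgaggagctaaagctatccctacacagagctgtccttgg
Vsir: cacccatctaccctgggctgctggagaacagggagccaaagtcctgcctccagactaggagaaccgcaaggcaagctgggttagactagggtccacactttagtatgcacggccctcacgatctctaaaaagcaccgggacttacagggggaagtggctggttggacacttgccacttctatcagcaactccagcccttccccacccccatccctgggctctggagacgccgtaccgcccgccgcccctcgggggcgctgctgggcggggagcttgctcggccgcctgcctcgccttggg
The Cd274 window held an IRF match that starts at base -175 from the start site, read on the minus strand. The Havcr2 window held an AP-1 match at base -200, and the Vsir window held none of the 4 motifs. Over the 7 genes with a window, 4 held an IRF match (Cd274, Pdcd1lg2, Lgals9 and Cd80), 2 an AP-1 match (Havcr2 and Cd80), 1 an NF-kappaB match (Pdcd1lg2) and 0 a STAT GAS match. Of all 32544 distinct windows, 23.9% held IRF, 7.79% AP-1, 8.49% NF-kappaB and 8.33% STAT GAS. No overlap between different motifs occurred in the windows of the 7 genes, and a match of letters is not a bound site.

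The costimulatory genes Cd80 and Cd86 were both higher in TANs than in BM, and in each group their levels overlapped. Cd80, a ligand of CD28 and CTLA-4, was at 53.9, 58.2, 70.9 and 64.2 CPM in PyMT TANs, at 47.6, 53.7, 66.6 and 55.4 CPM in PyMT-Cxcr2-/- TANs and at 27.8, 34.8, 40.2 and 30.9 CPM in WT BM neutrophils. Cd86, which binds the same receptors, was at 44.6, 54.9, 61.9 and 75.7 CPM in PyMT TANs, at 71.5, 71.8, 55.4 and 60.9 CPM in PyMT-Cxcr2-/- TANs and at 22.5, 28.1, 26.3 and 25.1 CPM in BM. Neither gene had a TAN library within the BM range, and the TAN groups overlapped each other. Cd80 rose 1.94-fold in PyMT TANs (log2 0.956 ± 0.151, edgeR, adjusted p = 0.000245) and 1.83-fold in PyMT-Cxcr2-/- TANs (log2 0.876 ± 0.133, edgeR, adjusted p = 5.56e-05). Cd86 rose 2.44-fold (log2 1.29 ± 0.173, edgeR, adjusted p = 7.42e-05) and 2.80-fold (log2 1.49 ± 0.118, edgeR, adjusted p = 1.59e-07). On the scale of the summed macrophage markers both were lower in TANs, at 1.09 to 2.46% for Cd80 and 1.10 to 2.57% for Cd86 over the 8 TAN libraries and at 8.71 to 15.9% and 7.04 to 11.2% in BM. Within each TAN group, Cd86 had the same order of libraries as the summed epithelial markers. These sums were 50.4, 71.1, 364 and 472 CPM in PyMT TANs and 261, 331, 93.3 and 127 CPM in PyMT-Cxcr2-/- TANs. The part of epithelial cells in Cd86 was not tested.

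Cd40, the receptor for the CD40 ligand, was low in all libraries. It was at 1.88, 4.83, 2.62 and 2.10 CPM in PyMT TANs, at 3.39, 4.03, 1.98 and 2.63 CPM in PyMT-Cxcr2-/- TANs, and at 0.480, 0.402, 0.229 and 0.168 CPM in WT BM neutrophils, where 6 to 16 counts were found. The TAN libraries were all above BM. The log2 rise was 3.22 ± 0.554, or 9.29-fold, in PyMT TANs (edgeR, adjusted p = 0.000449) and 3.37 ± 0.387, or 10.3-fold, in PyMT-Cxcr2-/- TANs (edgeR, adjusted p = 4.44e-06). Relative to the summed macrophage markers, Cd40 was 0.0493 to 0.0969% in PyMT TANs, 0.0695 to 0.111% in the PyMT-Cxcr2-/- group and 0.0751 to 0.152% in BM, and the ranges overlapped.

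Cd47 and Sirpa, ligand and receptor of the same axis, differed from each other. Cd47 was at 372, 256, 297 and 270.4 CPM in PyMT TANs, at 267, 265, 266 and 346 CPM in PyMT-Cxcr2-/- TANs and at 547, 497, 441 and 477 CPM in WT BM neutrophils. All BM libraries were above all TAN libraries. Cd47 fell by 0.648 ± 0.137 on the log2 scale, or 1.57-fold, in PyMT TANs (edgeR, adjusted p = 0.00179), and the log2 change was -0.643 ± 0.117, or 1.56-fold, in PyMT-Cxcr2-/- TANs (edgeR, adjusted p = 0.000251). Both falls were close to the 1.5-fold limit, and with library totals alone they were -0.21 and -0.46 and no longer past the thresholds (edgeR, adjusted p = 0.13 and 0.00024). The fall in PyMT-Cxcr2-/- TANs also missed the limit without library 1, 2 or 3 of that group (-0.58).

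Sirpa was at 888, 849, 843 and 536 CPM in PyMT TANs, at 1012, 946.5, 1244 and 1186 CPM in PyMT-Cxcr2-/- TANs and at 1362, 1091, 1064 and 942.5 CPM in WT BM neutrophils. PyMT TANs were below both other groups without overlap, and the PyMT-Cxcr2-/- TANs lay within the BM range. The log2 difference from BM was -0.45 ± 0.176 in PyMT TANs (edgeR, adjusted p = 0.0462), under the 1.5-fold limit, and 0.11 ± 0.138 in PyMT-Cxcr2-/- TANs (edgeR, adjusted p = 0.484, 95% interval -0.185 to 0.409). Adjusting each library for GC content and length put the first past the limit at -0.68 (edgeR, adjusted p = 0.0025), while with library totals alone it was -0.006 (edgeR, adjusted p = 0.98) and without the fourth PyMT TAN library -0.32 (edgeR, adjusted p = 0.057), past neither threshold. The related genes Sirpb1a, Sirpb1b and Sirpb1c are paralogs of Sirpa, and whether reads were shared between them was not tested. Sirpb1a was at 105 CPM in PyMT TANs, 120 CPM in the PyMT-Cxcr2-/- group and 79.7 CPM in BM, and it passed in the PyMT-Cxcr2-/- group against BM (log2 0.721, edgeR, adjusted p = 3.23e-05). Sirpb1b and Sirpb1c passed in neither comparison with BM.

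The next comparison asked how TANs differed with and without Cxcr2. None of the 10 checkpoint genes passed the thresholds in PyMT-Cxcr2-/- TANs against PyMT TANs in edgeR's quasi-likelihood test, where 1.38% of all 18463 genes tested were higher and 0.596% lower. At an unadjusted p under 0.05 there were 3 of 10 (Cd274, Havcr2 and Sirpa), with 15.2% of all genes tested, and DESeq2 called 1, Havcr2. Havcr2 and Sirpa were also the 2 of 10 whose groups did not overlap, which was so for 12% of all genes tested. The median log2 fold change of the 10 genes was 0.001, with -0.072 over all genes tested.

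Havcr2 averaged 74.1 ± 6.93 CPM (SD, n = 4) in PyMT TANs and 42.2 ± 13.2 CPM in the PyMT-Cxcr2-/- group. The log2 difference was -0.82 ± 0.207 (SE), with a 95% interval from -1.27 to -0.365 (edgeR, adjusted p = 0.0701), and the highest PyMT-Cxcr2-/- library, at 55.6 CPM, was below the lowest PyMT library, at 64.7 CPM. The difference passed the thresholds with DESeq2 (-0.77, adjusted p = 0.017), in a fit of all 12 libraries (-0.81, edgeR, adjusted p = 0.034) and without a filter on low counts (-0.76, edgeR, adjusted p = 0.029). In the same order of libraries, the macrophage markers of the PyMT-Cxcr2-/- TANs summed to 4303, 4944, 2852 and 2368 CPM, so that the libraries with less Havcr2 were also those with lower macrophage markers. In PyMT TANs these sums were 2195, 4989, 5317 and 3650 CPM, and the library with the lowest sum also had the least Havcr2, while the order of the other three differed. The first PyMT TAN library and the fourth PyMT-Cxcr2-/- TAN library had close macrophage sums, 2195 and 2368 CPM, and 64.7 and 29.0 CPM of Havcr2. The second libraries of the PyMT and PyMT-Cxcr2-/- groups had closer sums, 4989 and 4944 CPM, and 78.8 and 55.6 CPM of Havcr2. As the TAN groups did not overlap in Havcr2, any such pair of libraries has this direction, whatever its sums. The part of macrophages in Havcr2 was not tested. Of the dendritic cell markers 0 of 10 passed between the TANs in edgeR's test, and 2 of 10 did not overlap. Itgax made up most of their sum and was lower in the PyMT-Cxcr2-/- group without overlap (404 and 276 CPM), while Flt3 was higher there without overlap (0.575 and 1.86 CPM). The part of these cells in Havcr2 was not tested.

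Sirpa averaged 779 ± 163 CPM in PyMT TANs and 1097 ± 141 CPM in the PyMT-Cxcr2-/- group, a log2 difference of 0.489 ± 0.178 with a 95% interval from 0.100 to 0.879 (edgeR, adjusted p = 0.200). Without the fourth PyMT TAN library, at 536 CPM, it was 0.350 (edgeR, adjusted p = 0.26). Cd274 averaged 109 ± 19.8 and 80.0 ± 13.7 CPM, and its log2 difference of -0.45 ± 0.173 had an interval from -0.831 to -0.076 (edgeR, adjusted p = 0.225). With library totals alone the Cd274 difference was -0.65 and past the thresholds (edgeR, adjusted p = 0.041). The other 7 genes had log2 differences between -0.395 (Pdcd1lg2) and 0.259 (Vsir), all with intervals that included 0. These intervals lay within 1.5-fold in both directions for Cd80 (-0.474 to 0.173), Cd86 (-0.251 to 0.506), Cd47 (-0.410 to 0.275) and Lgals9 (-0.089 to 0.525). That of Vsir (-0.166 to 0.684) included a 1.5-fold rise, and those of Cd40 (-0.811 to 0.949) and Pdcd1lg2 (-2.50 to 1.71) included a 1.5-fold change in either direction.

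Ratios of genes within a library do not depend on how libraries are scaled, and they are given here as a description on the scale of CPM per kb. Havcr2 over Lgals9, receptor over ligand, was 0.473, 0.600, 0.698 and 0.792 in PyMT TANs, 0.386, 0.425, 0.238 and 0.192 in the PyMT-Cxcr2-/- group and 0.00279 to 0.00553 in WT BM neutrophils. The 3 groups did not overlap in this ratio. Sirpa over Cd47 was 3.05, 4.23, 3.63 and 2.54 in PyMT TANs, 4.84, 4.57, 5.99 and 4.37 in PyMT-Cxcr2-/- TANs and 2.53 to 3.18 in BM, with the PyMT-Cxcr2-/- TANs above both other groups. Vsir over Cd274, both inhibitory, was 113 to 266 in BM, 2.34 to 4.84 in PyMT TANs and 5.39 to 6.67 in the PyMT-Cxcr2-/- group, and the groups again did not overlap. Cd274 over Cd80, whose proteins can also bind each other on the same cell, was 0.179 to 0.318 in BM, 1.18 to 2.44 in PyMT TANs and 1.201 to 1.80 in PyMT-Cxcr2-/- TANs, where the TAN groups overlapped. Cd86 over Cd80 was 0.661 to 0.823 in BM, 0.837 to 1.19 in PyMT TANs and 0.843 to 1.52 in PyMT-Cxcr2-/- TANs. Its TAN groups overlapped as well. How often ratios of other gene pairs separate the TAN groups was not counted.

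**Figure D4:**
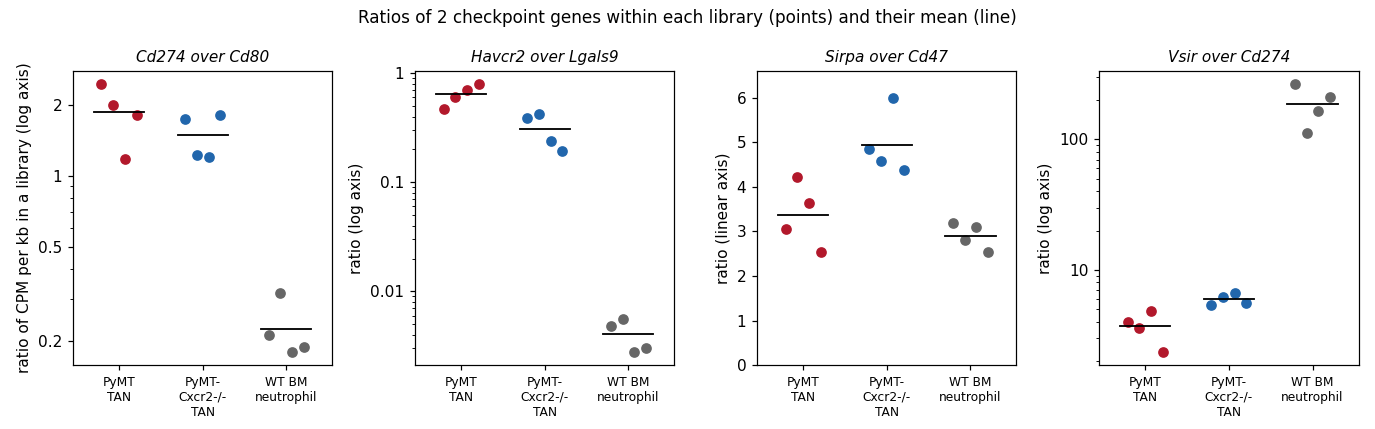
Ratios of CPM per kb of 2 checkpoint genes within each library (points) and their mean (line), on log axes except Sirpa over Cd47, which is linear from 0. Havcr2 over Lgals9 lay between 0.473 and 0.792 in PyMT TANs, between 0.192 and 0.425 in PyMT-Cxcr2-/- TANs and at or below 0.00553 in WT BM neutrophils.

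Of 35 genes for binding partners and other costimulators and coinhibitors, 23 were abundant enough to be tested in PyMT TANs against BM, with 11 higher, 5 lower and 7 not past the thresholds, and in PyMT-Cxcr2-/- TANs 10 of 24 were higher, 7 lower and 7 not past them. Over all genes tested, 30.1% were higher and 23.2% lower in the first comparison, and 34.4% and 25.1% in the second. The median log2 fold changes of the partners were -0.09 and 0.304, where those of all genes tested were both 0.09. Among the partners with a mean of at least 1 CPM over the 12 libraries, which leaves out Pdcd1 and Vtcn1 with 0 counts in BM, the highest in PyMT TANs were Nectin2 (5.58 ± 0.767), a ligand of TIGIT and CD226, Cd200 (5.40 ± 0.960), an inhibitory ligand of myeloid cells, and Tnfrsf9 (5.03 ± 0.777), the 4-1BB receptor, all at 4.21 CPM or less on average. Nectin2 and Cd200 were also highest in PyMT-Cxcr2-/- TANs (5.77 ± 0.546 and 5.59 ± 0.653), followed by Lag3 (4.63 ± 0.378), an inhibitory receptor. Cd200r1, the receptor of CD200, was lower in both, at 16.8 and 19.8 CPM against 68.5 CPM in BM. Tnfrsf4, the OX40 receptor, was lower as well, by similar amounts in PyMT TANs (-1.66) and PyMT-Cxcr2-/- TANs (-1.67).

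The direct partners of the 10 genes were mostly scarce. Pdcd1, which encodes PD-1, had 15 to 80 counts in each TAN library and 0 counts in all 4 BM libraries, and with 3 counts per BM library as a floor it was at least 14.2-fold higher in PyMT TANs and at least 10.7-fold higher in PyMT-Cxcr2-/- TANs. Ctla4, Cd28 and Cd40lg were too low to be tested, with group means of at most 0.467 CPM. Selplg, the PSGL-1 gene whose protein can bind VISTA, was abundant at 555 ± 136 CPM in PyMT TANs, 745 ± 88.6 in the PyMT-Cxcr2-/- group and 792 ± 95.4 in BM, and passed in none of the comparisons.

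Ceacam1, a further ligand of TIM-3, had its 3 group means in the opposite order to those of Havcr2. It was at 47.0, 48.9, 39.7 and 49.5 CPM in PyMT TANs, at 85.9, 86.2, 94.8 and 146 CPM in PyMT-Cxcr2-/- TANs and at 683, 529, 532 and 589 CPM in WT BM neutrophils. The groups did not overlap. Ceacam1 fell by 3.59 ± 0.141 on the log2 scale in PyMT TANs and by 2.36 ± 0.170 in PyMT-Cxcr2-/- TANs relative to BM (edgeR, adjusted p = 2.57e-08 and 7.77e-08), and it was 2.23-fold higher in PyMT-Cxcr2-/- TANs than in PyMT TANs (log2 1.16 ± 0.186, edgeR, adjusted p = 0.0143). Lgals3, a galectin that binds LAG-3, was the other partner gene past the thresholds between the TANs, with means of 184 and 305 CPM in PyMT and PyMT-Cxcr2-/- TANs (log2 0.720 ± 0.131, edgeR, adjusted p = 0.0201) with 819 CPM in BM. Ceacam1 and Lgals3 were 2 of 24 partner genes tested, and none of the 24 passed as lower, where 1.38% of all genes tested were higher and 0.596% lower. Without the second PyMT TAN library, neither passed (edgeR, adjusted p = 0.06 and 0.085), and Lgals3 was also lost without the second or the fourth PyMT-Cxcr2-/- TAN library (edgeR, adjusted p = 0.052 and 0.069), with library totals alone (log2 0.528) and with GC and length adjustment (edgeR, adjusted p = 0.088). The neutrophil markers moved the same way, with 5 of 10 higher in PyMT-Cxcr2-/- TANs (1.38% of all genes tested) and Cxcr2 itself lower (0.596%), and their part in these rises was not tested.

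Around Cd47 and Sirpa, 14 of 15 genes of the axis were tested, where over all genes tested 30.1% were higher and 23.2% lower in PyMT TANs, and 34.4% and 25.1% in the PyMT-Cxcr2-/- group. In PyMT TANs 3 were higher than in BM, which were Lrp1 (5.79 ± 0.292), the engulfment receptor for calreticulin, Slamf7 (2.65 ± 0.281) and Calr (1.47 ± 0.153), calreticulin itself. Another 4 were lower, led by Thbs1 (-4.40 ± 0.386), the CD47 ligand thrombospondin-1, Cd24a (-1.65 ± 0.134), a further signal against engulfment, and Ptpn6 (-1.01 ± 0.178), the SHP-1 phosphatase that acts downstream of SIRPα. In PyMT-Cxcr2-/- TANs 5 were higher and 3 lower, and Lrp1, Slamf7 and Calr (5.98 ± 0.309, 2.94 ± 0.243 and 1.36 ± 0.142) and Thbs1, Cd24a and Ptpn6 (-3.15 ± 0.205, -1.55 ± 0.154 and -0.92 ± 0.132) again led each direction. Macrophages also express Lrp1, and the macrophage markers rose in the same libraries. The part of macrophages in the rise of Lrp1 was not tested. Between the TANs none of the 14 genes was called by edgeR, where 1.38% of all genes tested were higher and 0.596% lower.

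Of 20 regulators of PD-L1, 6 were higher and 5 lower than BM in PyMT TANs, and the same numbers held in PyMT-Cxcr2-/- TANs, with medians of 0.01 and -0.02. These shares were near those over all genes tested, 30.1% higher and 23.2% lower in the PyMT group and 34.4% and 25.1% in the PyMT-Cxcr2-/- group. Cmtm4, whose protein stabilises PD-L1, was at 10.0 and 9.82 CPM in the TANs against 0.656 CPM in BM (log2 3.998 ± 0.394 and 4.03 ± 0.351), and Socs3, a feedback inhibitor of STAT3 signaling, was at 1188 and 1588 CPM against 141 CPM (3.14 ± 0.199 and 3.63 ± 0.153). Cmtm6, of the same list, was far more abundant and lower in TANs without overlap, at 367 and 425 CPM against 541.5 CPM. It passed the thresholds in neither comparison with BM (log2 -0.495 and -0.215). Jak2 was the third highest in PyMT TANs (1.26 ± 0.131) and Ifngr1, the ligand-binding chain of the interferon gamma receptor, in PyMT-Cxcr2-/- TANs (1.24 ± 0.089). Ifngr2, the partner chain, was lower in both (-1.15 ± 0.126 and -0.77 ± 0.098), as was Cop1 (-1.19 ± 0.169 and -0.81 ± 0.137), a ubiquitin ligase. Irf2 (-1.25 ± 0.136) was the lowest in PyMT TANs. Between the TANs Jak2 alone of the 20 passed, as lower, where 1.38% of all genes tested were higher and 0.596% lower. Jak2 was at 469, 327.5, 411 and 434 CPM in PyMT TANs and at 235, 213, 275 and 277 CPM in PyMT-Cxcr2-/- TANs. The log2 difference was -0.72 ± 0.151 (edgeR, adjusted p = 0.0361), and the groups did not overlap. This call was lost when any 1 of the 8 libraries was left out (log2 -0.81 to -0.60, edgeR, adjusted p = 0.062 to 0.11), and also with RLE factors, upper-quartile factors or GC and length adjustment (edgeR, adjusted p = 0.067, 0.059 and 0.12).

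Downstream of CD40, 5 of 12 genes tested were higher and 2 lower in PyMT TANs, and 5 were higher and 1 lower in the PyMT-Cxcr2-/- group. Traf1, an adaptor of TNF receptors, was at 86.0 and 80.5 CPM in the TANs against 1.72 CPM in BM (log2 5.71 ± 0.264 and 5.68 ± 0.251). Tnfaip3, which encodes the NF-kappaB feedback inhibitor A20, reached 2473 and 2653 CPM against 73.2 CPM (5.15 ± 0.136 and 5.31 ± 0.204), and Nfkb2, the noncanonical subunit, 297 and 408 CPM against 57.3 CPM (2.44 ± 0.121 and 2.97 ± 0.136). Map3k14, the kinase of this route, was lower (-0.83 ± 0.210 and -0.71 ± 0.103), and Traf2 was lower in PyMT TANs (-0.69 ± 0.170). Between the TANs none of these genes was called by edgeR. Over all genes tested, 30.1% were higher and 23.2% lower in PyMT TANs against BM, and 34.4% and 25.1% in the PyMT-Cxcr2-/- group. Between the TANs these shares were 1.38% and 0.596%. All these genes are also used by receptors other than CD40.

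**Figure D5:**
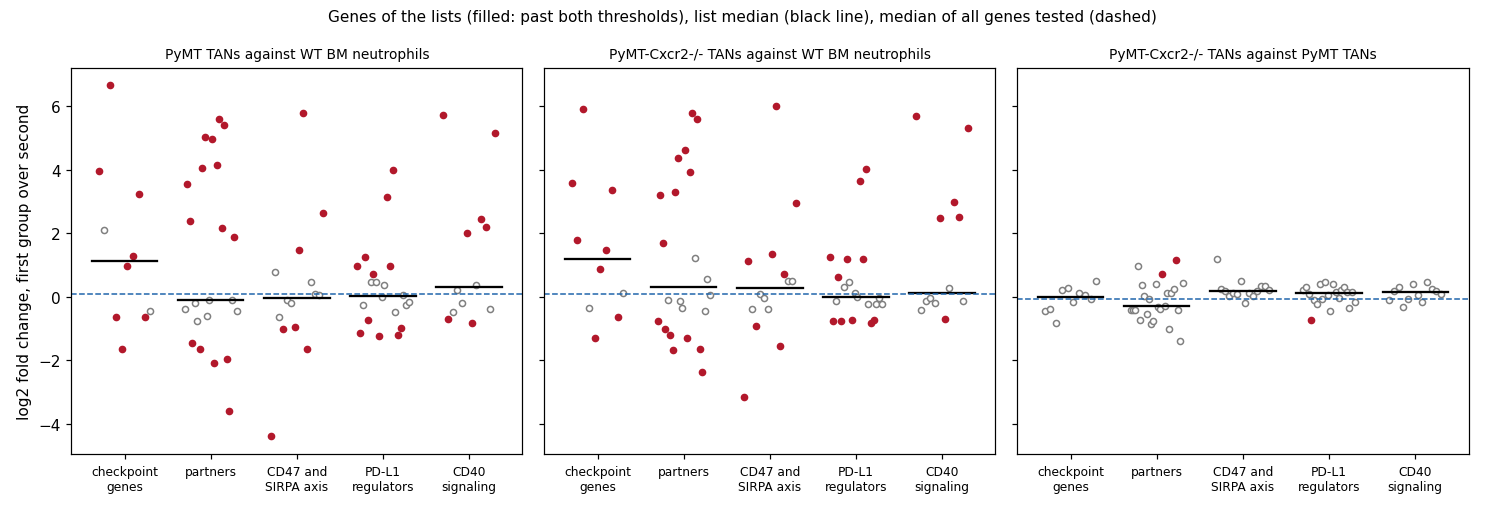
The log2 fold change (y axis, first group over second) of each tested gene in the 10 checkpoint genes and the 4 related lists (x axis) in the 3 comparisons, with filled points past both thresholds, the list median as a black line and the median of all genes tested as a dashed line. Genes with 0 counts throughout a group (Pdcd1 and, in the second panel, Vtcn1) are not drawn. Between the TANs, 3 points are filled, which are Ceacam1, Lgals3 and Jak2.

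Genes with the most similar course were sought among protein-coding genes of at least 1 CPM, by the Pearson correlation of log2 CPM, as a description. Over the 12 libraries, which mostly restates the step from BM to TANs, Cd274 was closest to Slc20a1, Tgif1 and Cd244a (r of 0.993 or more), Havcr2 to Itga5, Gbp3 and Atf6 (0.998, 0.997 and 0.997) and Vsir to Maf1, AI467606 and Rgs19 (0.996 each). Cd86 was closest to Cdcp1, Spint1 and Myo5c over the 12 (0.994, 0.992 and 0.992), which averaged 0.0438 CPM or less in BM. Over the 8 TAN libraries alone, Cd274 was closest to Uimc1, Zmat1 and Tiprl (r = 0.967, 0.960 and 0.958), and Havcr2 to Pole4, Ms4a6d and Zfp398 (0.993, 0.986 and 0.984). In the same 8 libraries Sirpa was closest to Grk2, Shc1 and Prex1 (0.992 each), and Prex1 was also the closest to Sirpa over all 12 (0.986). Among the 10 checkpoint genes, Cd274 and Havcr2 had r = 0.979 and Lgals9 and Vsir r = 0.952 over 12 libraries. Over the 8 TAN libraries alone, Cd274 and Havcr2 had r = 0.35 and Lgals9 and Vsir r = 0.862. In the same 8 libraries Vsir and Sirpa had r = 0.910, and Havcr2 and Sirpa r = -0.829. These libraries share their groups, scaling factors and cell makeup.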

How the data were processed

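Sorted neutrophils were sequenced in 4 libraries per group, and each library was analysed as a separate sample. The study gives 4 animals per group for the TANs, and the labels only number the replicates. After rRNA depletion and a directional library kit, the authors trimmed the paired-end reads and mapped them with STAR to the mm10 build, which is a C57BL/6 genome, not FVB. HTSeq gave the deposited values, which are raw counts per gene. The annotation release and the strand setting of the counting are not given in the sources used here. Rows that name no gene held 46.3 to 60.5% of each library, and their largest part, the HTSeq row of reads assigned to no feature, was 39.9 to 52.5% in TANs and 32.0 to 42.4% in BM. These rows were left out.

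Identifiers were matched to GENCODE M21 (55154 of 55335). Each comparison was fitted on its 2 groups alone with edgeR 4.0.16 in R 4.3.3 (TMM factors, filterByExpr, robust quasi-likelihood test) in place of the DESeq2 test that the study used, which became an alternative (DESeq2 1.42.0). Genes were called at a Benjamini-Hochberg adjusted p under 0.05 over all genes tested and a change of 1.5-fold. CPM come from TMM factors over the 12 libraries and fold changes from the fit of each comparison, and CPM per kb from merged exon lengths. Counting error is small for the abundant genes, while the scarce genes (Pdcd1lg2, Cd40) rest on as few as 0 and 6 counts in a library. The script was tested on simulated data.

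All 10 checkpoint genes and Cxcr2 are named. From each related list and comparison, the genes past the thresholds with a mean of at least 1 CPM were ranked by size of change, and up to 3 in each direction are named, except 1 that is not reported here. The marker lists give counts and sums. Genes of similar course are the 3 of highest correlation. Direct partners of the checkpoint genes, Sirpa's paralogs, Cmtm6, single marker genes and neighbors of Cd274 were named after their values were seen. The genes and lists were chosen with earlier results of these data known. Alternatives covered scaling, filters, shared or robust spread, a replicate block, GC content and length, DESeq2, the fold limit and leaving out each library.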

Additional observations from a re-analysis of the deposited data

Results flagged for a closer look

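In 30 groups of 4 libraries (the 10 checkpoint genes in 3 groups), 2 had a library standing apart from the others, by its gap to the nearest library relative to the range of the group. Chance alone gives about 1 in 20 such groups. Cd47 was at 346.4 CPM in the fourth PyMT-Cxcr2-/- TAN library, with the other three between 264.9 and 267.4 CPM. Sirpa was at 536.4 CPM in the fourth PyMT TAN library, with the other three between 843 and 888.2 CPM.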

How the results depend on the processing

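Against WT BM neutrophils, Cd274, Havcr2, Vsir, Cd86 and Cd40 kept their direction and stayed past the thresholds under every alternative run. A limit of 2-fold left 5 checkpoint genes in PyMT TANs. Library totals alone moved the median of all genes to 0.53, 0.27 and -0.26 (from 0.09, 0.09 and -0.07) and the share of calls that were higher from 56.4 to 72.8% in PyMT TANs, from 57.9 to 65.2% in PyMT-Cxcr2-/- TANs and from 69.9 to 34.5% between the TANs. The falls of Lgals9 and Cd47 in PyMT TANs also missed the 1.5-fold limit with upper-quartile factors (-0.54 and -0.56) and a filter at 1 CPM (-0.57 and -0.58). Sirpa in PyMT-Cxcr2-/- TANs turned to -0.023 in a fit of 12 libraries, to -0.075 with GC and length adjustment and to -0.083 with the replicate block added.

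Between the TANs, 0 checkpoint genes became 1 with library totals (Cd274) and 1 without a filter, in a fit of 12 libraries and with DESeq2 (Havcr2 each time), and the adjusted p of Havcr2 ran from 0.017 to 0.32. The 365 genes called became 597 with library totals, 594 without a filter, 886 with 12 libraries, 1035 with DESeq2, 213 with GC and length adjustment and 215 at 2-fold. Leaving out a library gave 23 (without the second PyMT TAN library) to 513 (without the first), with 189 without the fourth PyMT TAN library and 213, 227, 83 and 96 without PyMT-Cxcr2-/- TAN libraries 1 to 4. Small differences changed sign: Cd86 to -0.064 and Cd40 to -0.11 with library totals, Cd47 to 0.02 with GC and length adjustment and 0.034 with the block added, and Pdcd1lg2 to 0.47 with the replicate block and 0.50 with both. Leaving out a library, Pdcd1lg2 ran from -0.80 to 0.46, Cd40 from -0.093 to 0.452 and Cd47 from -0.15 to 0.10. The cause was not tested.

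Same-numbered libraries did not deviate together (correlations from -0.205 to 0.0841 over the 3 comparisons), so the replicate number was not taken as a pairing. As a replicate block it left 13 genes called between the TANs, and 8 with GC and length adjustment, and Ceacam1, Lgals3 and Jak2 were not among those past the thresholds (edgeR, adjusted p = 0.10, 0.16 and 0.16).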
